A study of Arabidopsis thaliana with 6 samples.

Results

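The genes described here are a chosen list of 43 nuclear genes of Arabidopsis thaliana. They encode light-harvesting antenna proteins (LHCA and LHCB) or subunits of photosystem I (PSA) and photosystem II (PSB). They were picked by gene identifier out of the 33489 genes in the count tables, with earlier results of these data known. The list held 20 antenna genes, 12 photosystem I genes and 11 photosystem II genes. Polyadenylated RNA of whole seedlings, grown on plates for 14 days, had been sequenced in 6 libraries, 3 from wild-type Col-0 and 3 from a line mutant in ZDP and APE2, zdp-1 ape2-2. It is named for the alleles zdp-1 of ZDP, which encodes a phosphatase that cleans 3' DNA ends, and ape2-2 of APE2, which encodes an endonuclease of base excision repair. The comparison addressed which transcripts differ in level between the line that carries both alleles and Col-0. The samples of each genotype are named A, B and C. Whether they came from separately grown seedlings was not stated, so a p-value here speaks only of the spread among these libraries, and that spread may be technical.

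Plants capture light with chlorophyll-binding proteins of the thylakoid membrane and pass the energy to the reaction centres of the photosystems. The LHCA proteins form the belt of photosystem I known as LHCI. LHCB1, LHCB2 and LHCB3 form the trimers of major LHCII, while LHCB4, LHCB5 and LHCB6 are the monomeric minor antenna that joins these trimers to photosystem II. The core subunits that hold the reaction centres are encoded in the chloroplast and were not analysed here, so the PSA and PSB genes below encode the outer and smaller subunits that the nucleus supplies.

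Library totals ran from 31190605 to 37241739 counts. Values are given in CPM, the normalised count of a gene relative to its library total after scaling by trimmed means of M-values (TMM), and 1 count was worth 0.0262 to 0.0328 CPM. ZDP, the first targeted gene, measured 30.2, 27.8 and 30.1 CPM in Col-0 and 18.5, 18.9 and 16.2 CPM in the mutant, a log2 fold change of -0.71 ± 0.05 (SE; edgeR adjusted p = 4.89e-15). APE2 measured 7.20, 8.83 and 8.52 CPM in Col-0 and 5.66, 5.71 and 5.89 CPM in the mutant, a log2 fold change of -0.51 ± 0.082 (SE; edgeR adjusted p = 2.65e-06). Both were lower in every mutant library but were still counted there. Markers of root tissue were summed over 17 genes and gave 202.1 to 205.3 CPM in Col-0 against 187 to 193.4 CPM in mutant libraries. Markers of shoot epidermis and guard cells, 9 genes, gave 851.6 to 876.2 CPM in Col-0 against 781 to 796.5 CPM in mutant libraries. None of these markers was at 0 in all libraries, and their part in the results below was not tested. In RNA of whole seedlings, fewer green cells and less RNA of a gene per cell cannot be told apart.

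Transcripts of the antenna and of both photosystems fell in zdp-1 ape2-2, with median log2 fold changes of -0.35 for 19 antenna genes, -0.35 for 12 photosystem I genes and -0.31 for 11 photosystem II genes. Of the 43 genes, 42 passed the filter on low counts. All of these 42 were called lower in the mutant, none was called higher, and in each of them the highest mutant library lay below the lowest Col-0 library. Among all 21182 genes tested, 21.2% were called lower and 22.2% higher at an adjusted p below 0.05 (edgeR's quasi-likelihood test), and 24.8% were lower without overlap between the groups. The median log2 fold change of the 42 genes was -0.34, which corresponds to a level 21.0% below Col-0, and the middle of the distribution was narrow, with quartiles of -0.36 and -0.31. The median of all tested genes was 0.00. The adjusted p of every tested antenna or photosystem gene other than LHCB4.3 was at most 1.11e-07. Errors given with log2 fold changes are standard errors (SE). The exception to the filter was LHCB1.5 (AT2G34420, chr2:14522524-14523568, minus strand), a major LHCII gene with 0 counts in all 6 libraries. Exons of other genes on the opposite strand cover 100% of its exon bases, so its 0 gives no measure of its expression.

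The decrease was modest in size but exceeded the spread between replicates. The common biological coefficient of variation was 1.99%, and the median coefficient of variation of a gene among the 42 was 1.87% in Col-0 and 1.95% in the mutant. When a gene had to differ by more than 1.2-fold (edgeR's glmTreat), 31 of the 42 were still called lower, against 3.14% of all tested genes. These were 15 of 19 antenna genes, 11 of 12 photosystem I genes and 5 of 11 photosystem II genes. With the coefficient of variation set to 0.1, a spread wider than the one measured, 25 of the 42 were called lower, against 3.59% of all tested genes.

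**Figure D1:**
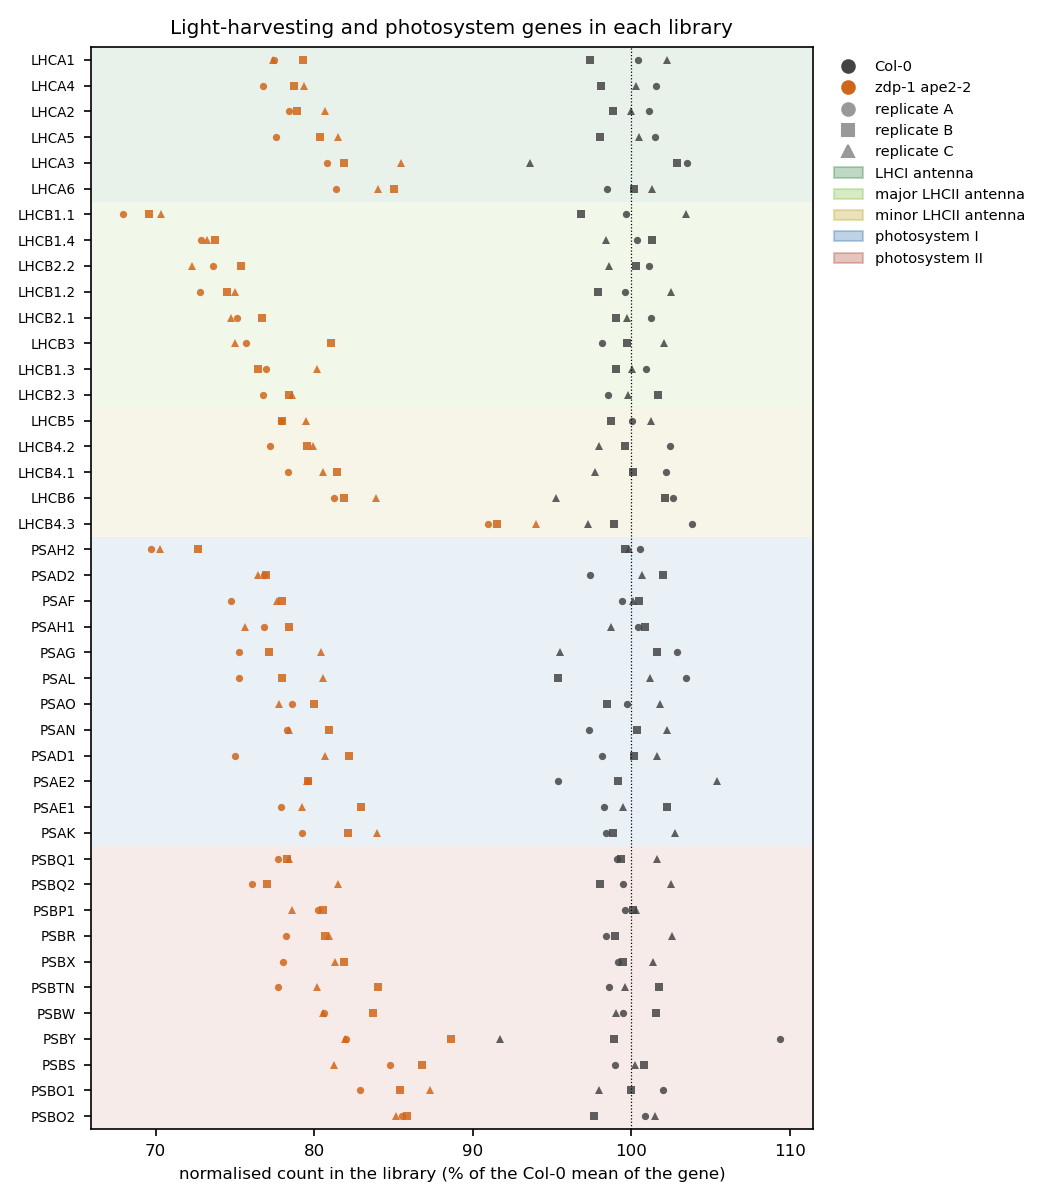
Normalised count of each of the 42 tested genes in each library, as a percent of the gene's Col-0 mean (horizontal axis), with Col-0 libraries in grey, mutant libraries in orange, marker shapes for replicates and shading for classes. The mutant means lie between 69.3% and 92.2% of the Col-0 means, and in every gene the mutant points are to the left of the Col-0 points.

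The genes together took 11.94% of all counts in Col-0 A, 11.84% in B and 11.94% in C. In the mutant they took 9.58% in A, 9.79% in B and 9.78% in C, with Wilson 95% intervals of at most 0.0114 percentage points to either side, which cover counting error only. Antenna genes alone took 8.17%, 8.07% and 8.14% in Col-0 and 6.47%, 6.58% and 6.61% in the mutant. Every mutant library thus lay below every Col-0 library, and the summed CPM of the mutant was 78.1% of that of Col-0 for all 43 genes, 77.1% for the antenna, 78.0% for photosystem I and 81.6% for photosystem II. Of the 10 genes with most counts in the tables, 7 were antenna or photosystem genes, as were 14 of the top 20 and 25 of the top 50.

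**Figure D2:**
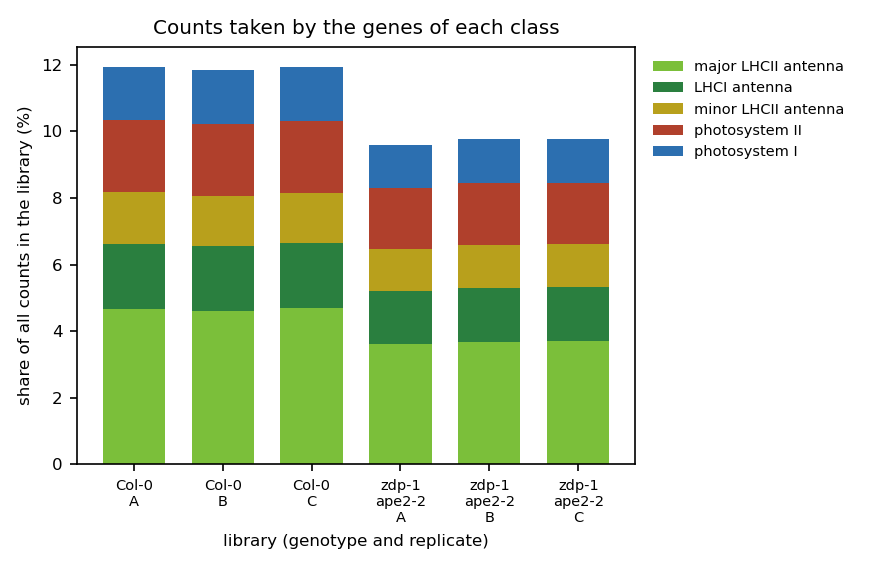
Share of all counts of a library taken by each class of genes, in percent, stacked for each of the 6 libraries. The stacks of Col-0 reach 11.84% to 11.94%, and those of the mutant 9.58% to 9.79%.

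Other abundant transcripts had smaller median changes. Among 159 other genes with at least 500 CPM, 90 were called lower and 44 higher, and the median log2 fold change was -0.08. These include genes of the thylakoid lists described below. With those left out, 147 genes remained, of which 78 were lower and 44 higher, with a median of -0.07. Among 50 other genes with at least 1000 CPM, 34 were lower and 10 higher, with a median of -0.16. The difference between these groups and the antenna and photosystem genes was not tested. Across the 42 genes, level per length in Col-0 and log2 fold change had a Spearman rho of -0.29. This describes genes that share the same 6 libraries.

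**Figure D3:**
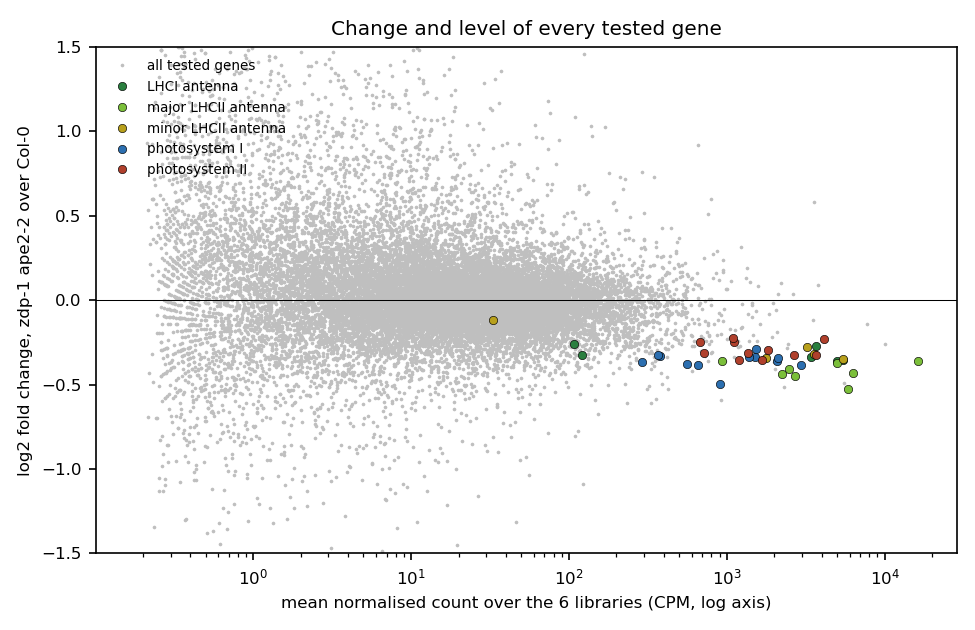
Log2 fold change of zdp-1 ape2-2 over Col-0 (vertical axis, cut at 1.5 in both directions) against the mean normalised count over the 6 libraries (CPM, log axis) for all tested genes in grey and the 42 antenna and photosystem genes in colour. The coloured points form a band between -0.53 and -0.12, and 39 of them lie between -0.45 and -0.2.

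The sequence before each gene was read from the RefSeq genome of the TAIR10.1 assembly, where all 43 genes have the coordinates of the count tables. Short promoter motifs, some of them known from light-regulated genes, were searched on both strands. The search ran from 250 bases before to 50 bases after the annotated start, in these genes and in all 27443 protein-coding genes. Windows were searched in full, also where they ran into a neighbouring gene. The G-box, CACGTG, bound by basic helix-loop-helix and bZIP factors, was in 15 of 43 windows (34.9%) against 7.68% of all. It was in 4 of 20 antenna, 4 of 12 photosystem I and 7 of 11 photosystem II windows. The letters CCAATC, known from promoters of genes that respond to GLK factors, were also in 15 of 43 windows, against 12.33% of all, in 11 of 20 antenna, 1 of 12 photosystem I and 3 of 11 photosystem II windows. The I-box, GATAAG, a light-regulation element of the GATA type, was in 18 windows (41.9%) against 14.67%, and AGATTC, bound by GARP-type factors, in 15 (34.9%) against 19.51%. The letters AATATCT, only a part of the evening element, were in 5 windows (11.6%) against 11.5%, and the telo-box letters AAACCCT in 1 (2.3%) against 10.05%. Over the 250 bases before the start alone, the shares were 20.9% against 6.49% for the G-box, 25.6% against 10.2% for the GLK-associated letters, 20.9% against 12.31% for the I-box and 25.6% against 16.36% for the GARP-type letters. By class, the G-box was then in 4 of 20 antenna, 2 of 12 photosystem I and 3 of 11 photosystem II windows. CCAATC was in 10 of 20, 0 of 12 and 1 of 11 of them. Some matches before the start lay beyond the bases free of other genes. Among the GARP-type matches these were those of LHCB5, PSAD2, PSAE1, PSAE2, PSBP1 and PSBW. The GARP-type matches of LHCB1.3, LHCB1.5, LHCB2.1, LHCB2.3 and PSAD1 lay within the free bases. The I-box and the GARP-type letters overlap by 2 letters in the LHCB2.1 sequence below, and the G-box and the reversed GARP-type letters by 1 letter in that of LHCB2.3. A match describes letters in a window and shows no binding. Upstream sequences printed below were chosen after the matches were known. They run 5' to 3' on the strand of the gene and end at the base before its start, in lower case with all matches to these motifs in capitals.

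Among the 6 LHCI genes, LHCA1 to LHCA4 encode the belt of photosystem I, while LHCA5 and LHCA6 encode scarce proteins that link photosystem I to the chloroplast NDH complex. All 6 fell, by a log2 fold change of -0.33 at the median, with a range of -0.36 to -0.26. LHCA1 (AT3G54890, chr3:20339504-20341176, minus strand) had the largest change of the group. It measured 5670.5, 5499.6 and 5774 CPM in Col-0 and 4374, 4478 and 4373 CPM in the mutant. Its log2 fold change was -0.36 ± 0.021 (SE; edgeR adjusted p = 2.46e-17). LHCA4 (AT3G47470, chr3:17493343-17495033, minus strand) had the highest level per length, 4747 CPM per kb of exon in Col-0, and measured 6245, 6032 and 6166 CPM in Col-0 and 4718, 4840.0 and 4879.5 CPM in the mutant. The libraries of each genotype lay close together in both genes, and the groups were well apart. The log2 fold change of LHCA4 was -0.35 ± 0.021 (SE; edgeR adjusted p = 2.16e-17).
LHCA4 upstream, chr3:17495034-17495283, minus strand: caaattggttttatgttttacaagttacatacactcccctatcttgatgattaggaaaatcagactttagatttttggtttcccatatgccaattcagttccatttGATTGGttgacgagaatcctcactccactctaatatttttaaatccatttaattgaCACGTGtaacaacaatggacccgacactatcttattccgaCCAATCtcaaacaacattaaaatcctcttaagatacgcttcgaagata
This window is shown because it holds CCAATC once in each orientation, 48 to 43 bases before the start and, as GATTGG, 144 to 139 bases before it, with a G-box between them. LHCA6 (AT1G19150, chr1:6612630-6613972, plus strand) had the smallest change of the group and was among the scarcest. It measured 116, 118 and 119.8 CPM in Col-0 and 96.2, 101 and 99.3 CPM in the mutant. On the log2 scale the change was -0.26 ± 0.027 (SE; edgeR adjusted p = 1.85e-10). LHCA5 measured 137, 132 and 135 CPM in Col-0 and 105, 108 and 109.8 CPM in the mutant, a log2 fold change of -0.33 ± 0.027. LHCA2 (log2 fold change -0.33 ± 0.02) and LHCA3 (-0.27 ± 0.026) lay in the same range. Stretches of at least 50 bases identical to another locus, AT5G28450, cover 21.8% of the exon bases of LHCA2, so its reads could be split.

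The major LHCII genes, which encode the most abundant membrane proteins of the chloroplast, had a median log2 fold change of -0.42 over the 8 tested of 9. Their range was -0.53 to -0.36, and all 8 were also called in the test against 1.2-fold. LHCB1.1 (AT1G29920, chr1:10474656-10475969, minus strand) changed most of all 42 genes. It measured 6859, 6663 and 7117 CPM in Col-0 and 4676, 4788 and 4838 CPM in the mutant. The log2 fold change was -0.53 ± 0.022 (SE; edgeR adjusted p = 5.12e-22), and the mutant mean was 69.3% of the Col-0 mean. LHCB1.3 (AT1G29930, chr1:10477885-10479114, plus strand) was the most abundant gene per length, at 14846 CPM per kb in Col-0. It measured 18427, 18087 and 18269 CPM in Col-0 and 14055, 13957 and 14642 CPM in the mutant. Its log2 fold change was -0.36 ± 0.021 (SE; edgeR adjusted p = 1.02e-17). In both genes every mutant library lay far below the lowest Col-0 library.
LHCB1.3 upstream, chr1:10477635-10477884, plus strand: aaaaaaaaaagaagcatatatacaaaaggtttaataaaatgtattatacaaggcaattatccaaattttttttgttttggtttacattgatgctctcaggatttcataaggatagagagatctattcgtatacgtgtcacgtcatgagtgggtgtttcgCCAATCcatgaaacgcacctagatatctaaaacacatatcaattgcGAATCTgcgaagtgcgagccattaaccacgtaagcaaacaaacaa
LHCB1.1 upstream, chr1:10475970-10476219, minus strand: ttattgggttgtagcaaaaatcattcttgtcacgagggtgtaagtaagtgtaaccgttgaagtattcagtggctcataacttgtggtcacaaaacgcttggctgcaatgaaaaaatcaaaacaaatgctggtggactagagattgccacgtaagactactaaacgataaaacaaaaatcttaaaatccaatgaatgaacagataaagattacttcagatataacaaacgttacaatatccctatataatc
These neighbours are shown because they had the largest change and the highest level and share parts of their exons: the LHCB1.3 window holds CCAATC 91 to 86 bases before the start, and none of the 6 motifs is in the LHCB1.1 window. LHCB1.1, LHCB1.2 and LHCB1.3 lie side by side on chromosome 1 between 10472280 and 10479114, each with 1 exon.

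Reads of the LHCB1 copies can be split between them. Stretches of at least 50 identical bases in LHCB1.3 and LHCB1.2 cover 32.0% and 22.5% of the exon bases of LHCB1.1, and 28.0% of those of LHCB1.4 are shared with LHCB1.5. Summed over LHCB1.1 to LHCB1.4, Col-0 measured 35654, 35024 and 35905 CPM and the mutant 26292, 26463 and 27216 CPM. The sums, 35528 ± 454 and 26657 ± 492 CPM (SD, n = 3 each), did not overlap between the groups. A sum does not depend on how reads were split among these 4 genes. It would still miss any reads dropped for having several alignments, whose treatment was not stated. LHCB1.2 had a log2 fold change of -0.43 ± 0.021 and LHCB1.4 of -0.45 ± 0.02.

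LHCB2 proteins are the phosphorylated LHCII subunits by which antenna moves between the photosystems in state transitions. LHCB2.1 (AT2G05100, chr2:1822990-1824480, minus strand) and LHCB2.2 (AT2G05070, chr2:1799234-1800472, minus strand) had log2 fold changes of -0.41 ± 0.021 and -0.44 ± 0.021. They share identical stretches over 39.3% and 48.4% of their exon bases, so reads can be split. Their sum measured 5470.2, 5386 and 5362 CPM in Col-0 and 4022, 4111 and 3977 CPM in the mutant, a mutant mean of 74.7% of Col-0 without overlap. LHCB2.3 (AT3G27690, chr3:10255906-10257489, plus strand) had the smallest change of the major LHCII genes. It measured 1029, 1062 and 1042 CPM in Col-0 and 802, 818 and 821 CPM in the mutant. On the log2 scale the change was -0.36 ± 0.021 (SE; edgeR adjusted p = 3.09e-17), and exons of another gene cover 40.6% of its exon bases.
LHCB2.1 upstream, chr2:1824481-1824730, minus strand: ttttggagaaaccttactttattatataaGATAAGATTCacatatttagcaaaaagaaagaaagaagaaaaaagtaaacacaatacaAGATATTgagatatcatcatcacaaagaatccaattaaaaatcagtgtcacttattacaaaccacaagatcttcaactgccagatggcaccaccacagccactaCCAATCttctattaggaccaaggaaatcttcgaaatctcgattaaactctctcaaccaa
LHCB2.2 upstream, chr2:1800473-1800722, minus strand: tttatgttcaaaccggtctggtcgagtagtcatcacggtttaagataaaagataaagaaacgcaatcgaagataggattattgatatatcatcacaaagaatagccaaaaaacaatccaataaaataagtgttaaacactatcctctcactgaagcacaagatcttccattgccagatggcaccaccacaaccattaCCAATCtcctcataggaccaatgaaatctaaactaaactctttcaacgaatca
LHCB2.3 upstream, chr3:10255656-10255905, plus strand: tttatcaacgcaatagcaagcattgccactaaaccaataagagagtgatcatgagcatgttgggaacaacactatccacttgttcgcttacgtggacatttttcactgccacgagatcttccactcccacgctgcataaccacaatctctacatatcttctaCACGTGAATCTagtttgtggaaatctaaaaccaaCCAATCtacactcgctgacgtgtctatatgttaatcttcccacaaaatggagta
The 3 copies are shown together because each holds CCAATC on the strand of the gene at a like distance, 59 to 54, 53 to 48 and 54 to 49 bases before the start. The windows of LHCB2.1 and LHCB2.2 also share a stretch of 20 bases just before it, tgccagatggcaccaccaca. LHCB3 (log2 fold change -0.37 ± 0.023), the third kind of trimer subunit, has none of the 6 motifs in its upstream window.

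Genes of the minor antenna had a median log2 fold change of -0.32. LHCB5 (AT4G10340, chr4:6408007-6409849, plus strand), which encodes a monomeric linker next to the photosystem II core, had both the largest change and the highest level per length of the group, 4386 CPM per kb in Col-0. It measured 6096, 6013 and 6168 CPM in Col-0 and 4748, 4752 and 4844 CPM in the mutant. The log2 fold change was -0.35 ± 0.02 (SE; edgeR adjusted p = 1.24e-17). LHCB6, the outer linker to the trimers, had a log2 fold change of -0.28 ± 0.023, with 20.4% of its exon bases under other genes. LHCB4.3 (AT2G40100, chr2:16745628-16747424, plus strand) stood apart from all others in level and in change. It measured 35.5, 33.8 and 33.3 CPM in Col-0 and 31.1, 31.3 and 32.2 CPM in the mutant, the lowest level per length of the 42 genes (23.6 CPM per kb in Col-0, 628 times less than LHCB1.3). The groups of LHCB4.3 lay close together, with 33.3 CPM in the lowest Col-0 library and 32.2 CPM in the highest mutant library. Its log2 fold change of -0.12 ± 0.039 (SE; edgeR adjusted p = 0.0126) was not called with library totals alone (-0.06, adjusted p = 0.256), with DESeq2 (-0.12, adjusted p = 0.0654) or without Col-0 A (-0.09, adjusted p = 0.0937). It was also not called in the test against 1.2-fold or with the wider spread.

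The copies LHCB4.1 (AT5G01530, chr5:208866-210548, plus strand) and LHCB4.2 (AT3G08940, chr3:2717557-2718923, plus strand) were far more abundant. LHCB4.1 measured 4024, 3941 and 3848 CPM in Col-0 and 3084, 3207 and 3171 CPM in the mutant, a log2 fold change of -0.32 ± 0.021. LHCB4.2 measured 2023, 1967 and 1935 CPM in Col-0 and 1525, 1571 and 1579 CPM in the mutant, a log2 fold change of -0.34 ± 0.022. Both fell without overlap between the groups.
LHCB4.1 upstream, chr5:208616-208865, plus strand: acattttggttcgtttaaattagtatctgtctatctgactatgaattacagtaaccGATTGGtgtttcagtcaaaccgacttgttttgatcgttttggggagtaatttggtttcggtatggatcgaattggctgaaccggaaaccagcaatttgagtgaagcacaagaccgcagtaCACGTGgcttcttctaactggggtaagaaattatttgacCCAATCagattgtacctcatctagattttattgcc
This window is shown as the minor-antenna counterpart of the LHCA4 and LHCB2.3 windows, with CCAATC 35 to 30 bases and a G-box 74 to 69 bases before the start.

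All 12 photosystem I genes fell. Their median log2 fold change was -0.35, in a range of -0.50 to -0.29. PSAH2 (AT1G52230, chr1:19454798-19455668, plus strand) changed most. Its protein, PsaH, sits where LHCII docks on photosystem I during state transitions. It measured 1071, 1061 and 1064 CPM in Col-0 and 743, 774 and 749 CPM in the mutant. Its log2 fold change was -0.50 ± 0.021 (SE; edgeR adjusted p = 1.7e-21), the mutant mean was 70.9% of the Col-0 mean, and exons of another gene cover 24.8% of its exon bases. Only 32 bases before its start are free of the neighbouring gene, and they are shown because they hold a G-box 12 to 7 bases before the start.
PSAH2 upstream, chr1:19454766-19454797, plus strand: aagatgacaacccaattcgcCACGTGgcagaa
PSAK (AT1G30380, chr1:10722183-10723247, plus strand), a peripheral subunit beside the LHCI belt, changed least. It measured 1655, 1662 and 1728 CPM in Col-0 and 1333, 1382 and 1412 CPM in the mutant. On the log2 scale the change was -0.29 ± 0.023 (SE; edgeR adjusted p = 9.07e-14). PSAO (AT1G08380, chr1:2640803-2641934, minus strand), another subunit of the LHCII docking side, had the highest level per length of the class, 2869.7 CPM per kb in Col-0. It measured 2344, 2314 and 2393 CPM in Col-0 and 1847, 1879 and 1829 CPM in the mutant, a log2 fold change of -0.34 ± 0.021. The mutant libraries of PSAK and of PSAO lay below all Col-0 libraries.

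The stromal subunits PsaD and PsaE, which form the docking site of ferredoxin, are each encoded by a pair of genes. PSAD1 measured 1519, 1551 and 1573 CPM in Col-0 and 1161, 1272 and 1248 CPM in the mutant. PSAD2, its copy, measured 720.4, 754 and 745 CPM in Col-0 and 568, 569 and 565 CPM in the mutant. Both were lower in each mutant library, with log2 fold changes of -0.34 ± 0.025 and -0.38 ± 0.022. PSAE1 measured 399, 416 and 404 CPM in Col-0 and 316, 337 and 322 CPM in the mutant. PSAE2, its copy, measured 399.9, 416 and 442 CPM in Col-0 and 334, 334 and 333 CPM in the mutant. These copies were also lower in each mutant library, with log2 fold changes of -0.32 ± 0.024 and -0.33 ± 0.026. Exons of other genes cover 34.1% of the exon bases of PSAE1. PSAF (log2 fold change -0.38 ± 0.021) and PSAN (-0.34 ± 0.022) encode the subunits of the lumenal side that help to bind plastocyanin. PSAL (-0.36 ± 0.025) encodes a subunit next to PsaH, and PSAG (-0.37 ± 0.026) a peripheral subunit at the belt. Exons of another gene cover 61.4% of PSAG.

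The 11 photosystem II genes also all fell. Their median log2 fold change was -0.31, in a range of -0.36 to -0.23. PSBO, PSBP and PSBQ encode the extrinsic proteins that shield the oxygen-evolving cluster on the lumenal side. PSBO1 (AT5G66570, chr5:26568572-26570461, plus strand) measured 4531, 4440.3 and 4352 CPM in Col-0 and 3681, 3794 and 3877 CPM in the mutant, a log2 fold change of -0.23 ± 0.022. PSBO2 (AT3G50820, chr3:18890874-18892508, minus strand), the smallest change of the class, measured 1185, 1147 and 1193 CPM in Col-0 and 1005, 1009 and 1001 CPM in the mutant. The log2 fold change of PSBO2 was -0.23 ± 0.021 (SE; edgeR adjusted p = 1.51e-11). Their mutant means were 85.2% and 85.5% of Col-0, and the groups did not overlap in either gene. PSBQ1 (AT4G21280, chr4:11334352-11335815, plus strand), the largest change of the class, measured 1326, 1329 and 1359 CPM in Col-0 and 1039.8, 1048 and 1049 CPM in the mutant. The log2 fold change of PSBQ1 was -0.36 ± 0.021 (SE; edgeR adjusted p = 1.89e-17). PSBQ2 (AT4G05180, chr4:2671523-2673243, minus strand) measured 1854, 1827 and 1910.2 CPM in Col-0 and 1418, 1435 and 1518 CPM in the mutant, a log2 fold change of -0.35 ± 0.023.
PSBQ1 upstream, chr4:11334169-11334351, plus strand: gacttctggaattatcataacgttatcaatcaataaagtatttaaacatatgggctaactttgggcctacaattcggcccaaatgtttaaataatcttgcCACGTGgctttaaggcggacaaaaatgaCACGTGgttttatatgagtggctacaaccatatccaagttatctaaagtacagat
PSBQ2 upstream, chr4:2673244-2673493, minus strand: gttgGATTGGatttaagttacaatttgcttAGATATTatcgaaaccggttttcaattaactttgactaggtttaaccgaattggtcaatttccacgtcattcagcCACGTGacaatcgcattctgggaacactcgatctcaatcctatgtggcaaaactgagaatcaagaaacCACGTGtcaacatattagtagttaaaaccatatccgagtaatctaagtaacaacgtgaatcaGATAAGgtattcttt
These copies are shown because each holds 2 G-boxes: 83 to 78 and 55 to 50 bases before the start of PSBQ1, whose window ends at a neighbouring gene after 183 bases, and 145 to 140 and 77 to 72 bases before that of PSBQ2. PSBP1 had a log2 fold change of -0.33 ± 0.02. PSBR (AT1G79040, chr1:29735952-29737009, plus strand), which helps to hold the extrinsic proteins, had the highest level per length, 3758 CPM per kb in Col-0. It measured 2900.1, 2916 and 3022 CPM in Col-0 and 2305, 2377 and 2384 CPM in the mutant, a log2 fold change of -0.32 ± 0.021. PSBS, the sensor of lumen acidity in energy-dependent quenching, had a log2 fold change of -0.25 ± 0.022. The small membrane or lumenal subunits PSBTN (-0.31 ± 0.024), PSBW (-0.29 ± 0.021) and PSBX (-0.32 ± 0.022) lay close to the class median. PSBY, which encodes small subunits near cytochrome b559, had the widest spread in Col-0 of the 42 genes. It measured 806, 728 and 675 CPM in Col-0 and 604, 653 and 603 CPM in the mutant. The groups were nearest in Col-0 C and mutant B but did not overlap, and the log2 fold change was -0.25 ± 0.034 (SE; edgeR adjusted p = 1.11e-07), the highest adjusted p of the 41 genes other than LHCB4.3.

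The balance between classes was compared within each library. The summed CPM of the antenna over that of photosystem I was 5.08, 5.01 and 4.98 in Col-0 A, B and C and 5.01, 4.91 and 4.99 in the mutant, and these groups overlapped. The antenna over photosystem II was 3.78, 3.73 and 3.76 in Col-0 and 3.55, 3.52 and 3.58 in the mutant. Photosystem I over photosystem II was 0.743, 0.745 and 0.755 in Col-0 and 0.709, 0.717 and 0.718 in the mutant. Both ratios to photosystem II were lower in every mutant library than in any Col-0 library. Within the antenna, major LHCII over LHCI was 2.36, 2.39 and 2.43 in Col-0 and 2.28, 2.27 and 2.27 in the mutant. Major over minor LHCII was 3.02, 3.03 and 3.13 in Col-0 and 2.89, 2.89 and 2.88 in the mutant, again without overlap. These ratios do not depend on the scaling of a library. They were not tested, and 3 samples against 3 cannot give a two-sided exact permutation p below 0.1.

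For 6 proteins with a pair of gene copies, the share of the first copy in the pair's counts was compared, which also does not depend on scaling. PSAH1 (AT3G16140, chr3:5467987-5469594, minus strand) measured 631, 634 and 621 CPM in Col-0 and 483, 493 and 476 CPM in the mutant, a log2 fold change of -0.38 ± 0.022, against -0.50 ± 0.021 for PSAH2. The PSAH1 share was 37.1%, 37.4% and 36.8% in Col-0 and 39.4%, 38.9% and 38.9% in the mutant, a mean of 37.1 ± 0.286% against 39.1 ± 0.301% (SD, n = 3 each; exact two-sided permutation p = 0.1, the smallest possible, and 0.3 adjusted over the 6 pairs). The difference exceeded the spread between replicates but could not pass the threshold at this number of samples. Exons of another gene cover 53.3% of PSAH1. The LHCB4.1 share of LHCB4.1 and LHCB4.2 went from 66.6 ± 0.0917% to 66.9 ± 0.178%, also without overlap (exact p = 0.1, adjusted 0.3). The other 4 pairs overlapped between the genotypes. The PSAD1 share was 67.7 ± 0.338% in Col-0 and 68.3 ± 1.06% in the mutant, and the PSAE1 share 49.2 ± 1.27% and 49.3 ± 0.813%. The PSBO1 share was 79.1 ± 0.519% and 79.0 ± 0.463%, and the PSBQ1 share 41.8 ± 0.282% and 41.8 ± 0.801%. Adjusted exact permutation p-values of these 4 were 0.8 for PSAD and 1.0 for PSAE, PSBO and PSBQ.

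**Figure D4:**
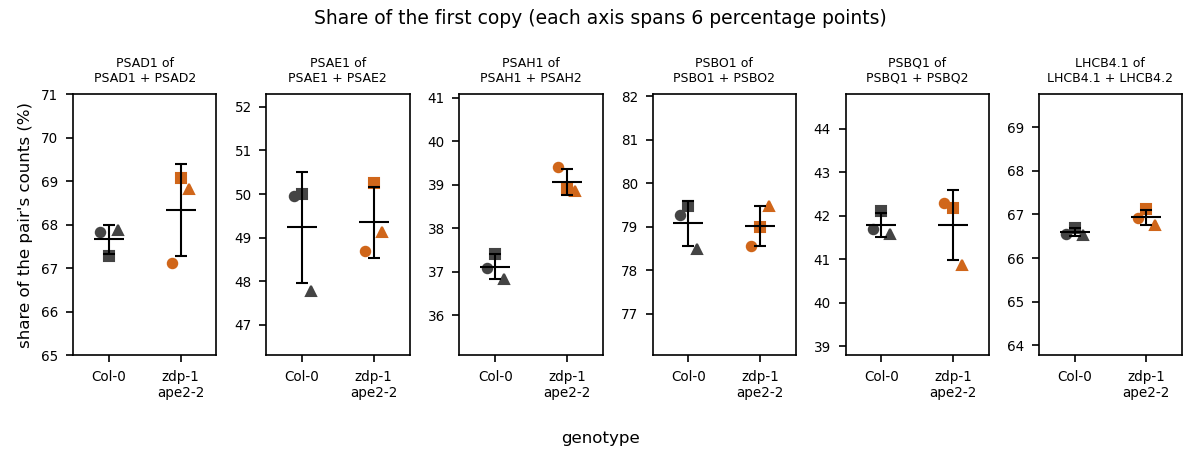
Share of the first gene copy in the counts of its pair, in percent, for 6 pairs in Col-0 (grey) and zdp-1 ape2-2 (orange), with a marker per library and the mean ± SD in black. Each axis spans 6 percentage points, and the groups are apart for PSAH1 (37.1% and 39.1%) and, by less, for LHCB4.1 (66.6% and 66.9%).

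Most other thylakoid genes examined were also lower. Over 8 lists with 66 genes, 59 were called lower (89.4%, against 21.2% of all tested genes), 3 higher and 4 were not called. The median log2 fold change was -0.24. These lists, called the thylakoid lists below, cover proteins of the photosynthetic membrane and its upkeep, and also 6 plastid sigma factors. The difference from the antenna and photosystem genes was not tested. Of 14 genes of thylakoid electron transport and ATP synthase, 12 were lower and none higher, with a median of -0.27. Examples, with log2 fold changes in brackets here and for the lists that follow, were FNR2, a ferredoxin-NADP reductase (-0.34 ± 0.021), the plastocyanin gene PETE2 (-0.41 ± 0.026) and ATPD, the delta subunit of ATP synthase (-0.31 ± 0.021). Of 11 nuclear NDH complex genes 10 were lower and none higher, with a median of -0.27, among them PNSB1 (-0.32 ± 0.024), PNSB4 (-0.39 ± 0.031) and PNSL1 (-0.29 ± 0.027). Exons of other genes cover 56.5% of PNSB4. They cover 100% of the exon bases of NDHL, counted among the 10, so its 3.15 ± 0.614 CPM in Col-0 and 2.47 ± 0.195 CPM in the mutant (SD, n = 3 each) may not measure its expression.

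Of 5 genes for the insertion of antenna proteins into the membrane 4 were lower and none higher. ALB3, the thylakoid insertase, had a log2 fold change of -0.34 ± 0.022, CPSRP43, the antenna-binding subunit of the chloroplast signal recognition particle, of -0.34 ± 0.024, and LTD, which hands antenna precursors to that particle, of -0.28 ± 0.032. Exons of other genes cover 59.5% of LTD. Of 14 genes of photosystem assembly and repair 13 were lower and 1 higher, with a median of -0.23, and PSB33 (-0.34 ± 0.024), PSB27 (-0.35 ± 0.027) and THF1 (-0.23 ± 0.023) were those with the smallest p. Of 8 light-harvesting-like genes 7 were lower and 1 higher, with OHP2 at -0.41 ± 0.032, LIL3.1 at -0.28 ± 0.024 and OHP1 at -0.31 ± 0.031. Other genes cover 27.1%, 28.2% and 22.1% of the exons of these genes.

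All 4 thylakoid kinase and phosphatase genes were lower, among them STN7 (-0.21 ± 0.027), the kinase of state transitions, its counterpart phosphatase TAP38 (-0.23 ± 0.025) and PBCP (-0.35 ± 0.04), a phosphatase of photosystem II core proteins. Of 4 thylakoid curvature genes, CURT1A (-0.20 ± 0.022), CURT1B (-0.20 ± 0.022) and CURT1C (-0.17 ± 0.025) were lower and 1 was higher. All 6 plastid sigma factor genes, which direct the plastid RNA polymerase to chloroplast genes, were lower, led by SIG6 (-0.37 ± 0.027), SIG2 (-0.27 ± 0.025) and SIG1 (-0.23 ± 0.026).

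Of 16 regulators of photosynthesis genes, 11 were lower (68.8%, against 21.2% of all tested genes) and 1 higher, with a median of -0.17. GLK1, a GARP transcription factor that activates antenna and chlorophyll genes, measured 163, 163 and 159 CPM in Col-0 and 114, 115 and 113 CPM in the mutant. The log2 fold change was -0.50 ± 0.025 (SE; edgeR adjusted p = 2.34e-19). Its 3 mutant libraries lay close together and far below those of Col-0. GLK2, its paralog, had a log2 fold change of -0.26 ± 0.025, and GUN5, a subunit of magnesium chelatase in chlorophyll synthesis, of -0.29 ± 0.021. GUN4, at 0.329 ± 0.151 CPM in Col-0, could not be assessed, with 73.0% of its exon bases under another gene.

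**Figure D5:**
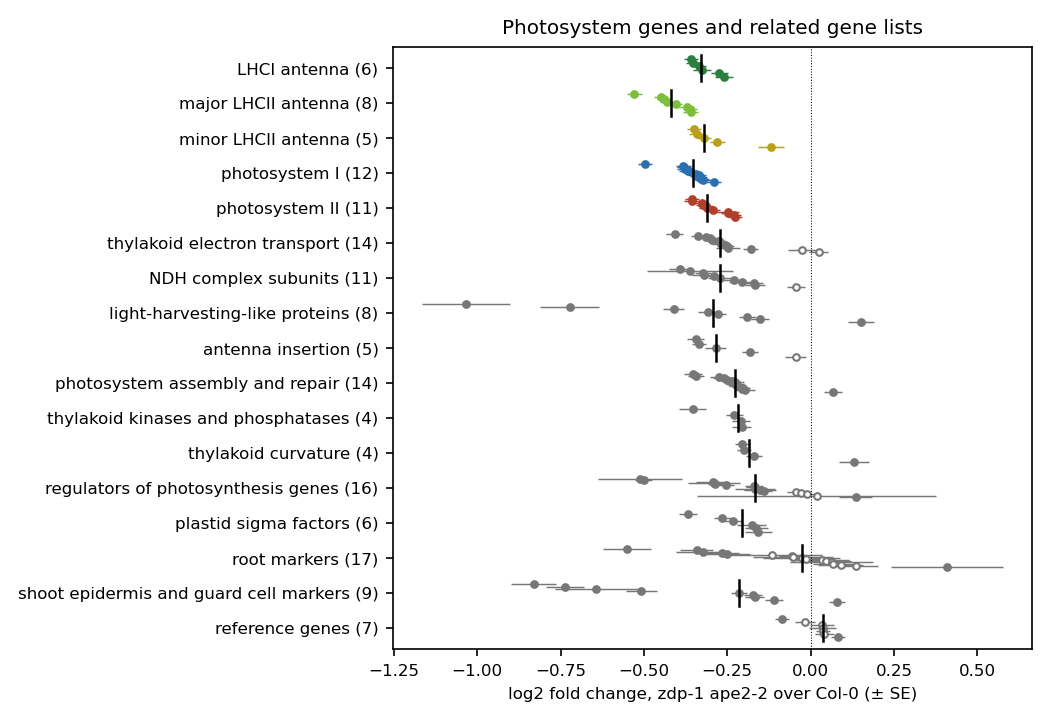
Log2 fold change ± SE of each tested gene (horizontal axis) by class or list (vertical axis, number of tested genes in brackets), with filled points for called genes, open points for the rest and a black bar at the median. Medians of the 5 antenna and photosystem rows and of the thylakoid and regulator lists lie between -0.42 and -0.17, as does that of the shoot epidermis and guard cell markers (-0.22), and the root markers and reference genes have medians of -0.03 and 0.04.

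The lists of tissue markers and reference genes gave a mixed picture. Among all tested genes, 21.2% were called lower and 22.2% higher. Of 17 root markers 5 were lower (29.4%, near the share of all tested genes) and 1 higher, with a median of -0.03. The called root markers with the smallest p were FRO2 (-0.55 ± 0.073), CASP1 (-0.34 ± 0.049) and IRT1 (-0.27 ± 0.049). With library totals alone, the median of the root markers was 0.04. Of 9 markers of shoot epidermis and guard cells, 8 were lower (88.9%) and 1 higher, with a median of -0.22. The guard cell genes MYB60 (-0.83 ± 0.068), FAMA (-0.74 ± 0.058) and KAT1 (-0.51 ± 0.046), a potassium channel, led them. Of 7 genes often used as references, UBQ10 was higher (0.08 ± 0.021) and ACT2 lower (-0.09 ± 0.022, not called with library totals alone, at -0.02), and 5 were not called.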

How the data were processed

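For each sample the authors deposited a table that gives every gene a read count in whole numbers, neither normalised nor pooled, and its length in bases. The deposited length, listed as another unit, equals the merged exons and served only for CPM per kb. Reads were aligned to TAIR10 with STAR, per the submitters' processing notes. Not given in the sources used here are the counting tool, strand setting and treatment of reads with several alignments, so reads of near-identical copies and of overlapping or antisense genes cannot be told apart. Samples were grouped by their titles, and the tables held no other sample's column. Chloroplast genes were not analysed here.

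TAIR10.1 holds all 33489 identifiers, 33309 of them at identical coordinates. In R 4.3.3, genes were filtered with filterByExpr by genotype, scaled with TMM, and tested with edgeR 4.0.16 (glmQLFit, glmQLFTest, two-sided, genotype as the only term) over all 6 samples. Calls were made at a Benjamini-Hochberg adjusted p below 0.05 over all 21182 genes tested. The statistics were tested on simulated counts first. DESeq2 1.42.0, voom of limma 3.58.1, other scalings, no filter, a replicate block, a fixed coefficient of variation, a minimum fold and leaving out each sample were alternatives. Copies are stretches of at least 50 identical bases in exons elsewhere in the genome. Pair shares were compared with exact permutation tests in scipy 1.17.1.

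The genes and lists were chosen with earlier results of these data known. Values are given for the largest and smallest change and the highest level per length in each class, for copy pairs, for genes not called, and for up to 3 called genes with the smallest p in each of the 12 lists. Others are named with their log2 fold change only. No 2 libraries were the same: the chi-square of replicate counts was 1.55 to 1.92 per gene, and 27.2 to 63.7 per antenna or photosystem gene.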

Additional observations from a re-analysis of the deposited data

How the results depend on the processing

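Of 630 comparisons of the 42 genes with 15 alternatives, 599 kept direction and call, 31 lost the call and none reversed. The 31 were 17 with the coefficient of variation set to 0.1, 11 in the test against 1.2-fold, and LHCB4.3 with DESeq2, library totals and without Col-0 A. With library totals alone the medians were -0.28 for all 42 genes, -0.29 for the antenna, -0.29 for photosystem I, -0.25 for photosystem II and -0.18 for the 8 thylakoid lists, and the summed mutant CPM was 81.6%, 80.6%, 81.5% and 85.3% of Col-0 for all, antenna, photosystem I and photosystem II. That scaling moved the median of all genes by 0.06, called 2717 genes lower and 6964 higher in place of 4498 and 4699, and turned the root marker median to 0.037. With a coefficient of variation of 0.1, 25 of the 42 genes, 2 of photosystem II and 12 of the thylakoid lists were called lower, and 0 of the lists higher. In the test against 1.2-fold these were 5 for photosystem II and 14 lower and 0 higher for the lists. DESeq2 called 1 of the lists higher. The cause of these moves was not tested, beyond the stricter demand that the wider spread and the minimum fold make.

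Leaving out each sample in turn gave medians of -0.33 to -0.29 for photosystem II and -0.26 to -0.24 for the thylakoid lists, of which 1 to 3 were called higher (1 without Col-0 A and 1 without mutant C). All 42 genes, or 41 without Col-0 A, were called lower. The log2 ratio of the copies, mutant minus Col-0, ran from -0.036 to 0.028 for PSAE (0.01 with all samples), -0.031 to 0.014 for PSBO (-0.01 with all) and -0.016 to 0.027 for PSBQ (0.00 with all), and it changed sign without Col-0 C or mutant B for PSAE, without Col-0 A, Col-0 B or mutant A for PSBO, and without Col-0 B or mutant C for PSBQ. It stayed between 0.11 and 0.13 for PSAH.

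Replicate letters are not said to mark a shared culture or day. Deviations of same-lettered samples had correlations of -0.0236, 0.0708 and 0.00227 over 15510 genes, so the letters were not used as pairs. With the letter as a replicate block the 42 genes were again called lower, and 4620 genes in all were lower and 4830 higher. Precision is lowest for LHCB4.3, the scarcest of the 42 genes, and counting intervals cover counting error only.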

Other observations

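Some related genes outside the antenna and photosystem list were chosen after their values were seen. The early light-induced genes ELIP1 and ELIP2, whose proteins resemble antenna proteins and accumulate under light stress, were scarce, with log2 fold changes outside the range of the antenna genes. ELIP1 measured 7.59, 6.55 and 7.21 CPM in Col-0 and 4.62, 4.23 and 4.07 CPM in the mutant, a log2 fold change of -0.72 ± 0.088. ELIP2 measured 3.60, 3.34 and 2.98 CPM in Col-0 and 1.78, 1.52 and 1.56 CPM in the mutant, a log2 fold change of -1.03 ± 0.13. In both genes every mutant library lay below every Col-0 library.

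In the thylakoid and regulator lists 4 genes were called higher in the mutant by edgeR, none of them in the test against 1.2-fold or with a coefficient of variation of 0.1. SEP2, a gene for a light-harvesting-like protein, went from 39.7 ± 2.01 to 44.1 ± 1.83 CPM (SD, n = 3 each), a log2 fold change of 0.15 ± 0.039. CURT1D had a log2 fold change of 0.13 ± 0.044, FTSH8, a thylakoid protease gene, of 0.07 ± 0.028 with an edgeR adjusted p of 0.0432, and PIF3, a phytochrome-interacting factor gene, of 0.14 ± 0.05. DESeq2 called SEP2 higher (adjusted p = 0.013) but not CURT1D (0.09), FTSH8 (0.121) or PIF3 (0.128), and these 3 also lost their calls when some single libraries were left out, as without Col-0 A (adjusted p of 0.125, 0.0615 and 0.0783). SEP2 was called in each of these leave-one-out fits. Beside them, 13 of the 14 assembly and repair genes and 11 of the 16 regulator genes were called lower. The nuclear genes FD1 (log2 fold change 0.02 ± 0.029), a ferredoxin, and CPFTSY (-0.04 ± 0.031), the receptor of the chloroplast signal recognition particle, were not called.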
